A study of Mus musculus with 4 samples.

Results

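The ligands of the epidermal growth factor receptor (Areg, Ereg, Epgn, Btc, Hbegf, Tgfa and the related Nrg1), the receptor gene Egfr and its feedback inhibitor Errfi1 were examined for phospho-CREB binding in MC3T3-E1 cells, an established mouse pre-osteoblast line. Phospho-CREB had been mapped by chromatin immunoprecipitation and sequencing with an antibody against CREB phosphorylated at its protein kinase A site. Cells had received forskolin at 100 nM, an activator of the cAMP-producing enzyme adenylyl cyclase, or DMSO vehicle, each for 1 h, with 2 libraries per treatment that the series calls biological replicates. Both groups were otherwise grown alike, in alpha MEM with serum, and all libraries come from 1 line. The deposited peak lists of the 4 libraries were merged where peaks shared at least 1 bp, and regions were taken that lay inside 1 of the 9 genes or had their centre within 100 kb of a transcription start site (TSS) of one. This gave 38 of 28335 regions, at 9 of 22367 protein-coding genes. All positions refer to build mm9 (NCBIM37), and negative distances are upstream of a TSS.

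Ligands of this family are made as membrane-anchored precursors, which metalloproteases of the ADAM family cut to release the soluble factor. Most of them bind the receptor encoded by Egfr, while neuregulin 1 binds the related receptors ErbB3 and ErbB4. The activated receptor signals through RAS and the MAP kinases, and Errfi1 (also called Mig-6), which is itself induced by receptor signalling, binds the kinase domain and shuts it off. In osteoblasts amphiregulin, the product of Areg, is known as a gene induced by parathyroid hormone through cAMP and protein kinase A. CREB binds the cAMP response element (CRE), TGACGTCA, and more weakly its core, TGACG.

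Phospho-CREB lay on the promoters of Areg and Errfi1 in all 4 libraries, and both promoters carry a full CRE inside the called peaks. Another full CRE lay upstream of Tgfa, in a region called in 1 library. These stretches are shown with every CRE core, full CRE and AP-1 site (TGAGTCA), on either strand, in capitals. The promoter stretches end at the base before the TSS, and the full CRE runs from -77 to -70 at Areg and from -54 to -47 at the downstream TSS of Errfi1.
Areg promoter, chr5:91568441-91568640, plus strand: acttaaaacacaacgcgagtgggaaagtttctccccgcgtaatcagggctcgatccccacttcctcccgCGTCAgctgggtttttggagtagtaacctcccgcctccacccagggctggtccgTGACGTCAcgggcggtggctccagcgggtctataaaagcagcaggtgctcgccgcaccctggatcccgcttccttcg
Errfi1 promoter, chr4:150228982-150229181, plus strand: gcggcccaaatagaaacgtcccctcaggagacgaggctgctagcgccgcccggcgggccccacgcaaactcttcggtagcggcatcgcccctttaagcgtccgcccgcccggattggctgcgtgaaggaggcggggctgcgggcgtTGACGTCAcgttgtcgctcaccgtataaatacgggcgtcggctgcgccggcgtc
Tgfa upstream region, chr6:86103521-86103721, plus strand: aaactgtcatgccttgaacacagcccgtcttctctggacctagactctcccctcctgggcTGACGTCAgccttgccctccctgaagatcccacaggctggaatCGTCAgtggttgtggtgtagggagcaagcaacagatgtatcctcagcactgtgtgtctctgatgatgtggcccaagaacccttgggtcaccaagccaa

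Over the 9 genes, 8 of the 38 regions were forskolin-only, that is with a peak in both forskolin libraries and in neither vehicle library, against 18.3% of all merged regions. None (0 of 38) was vehicle-only, the reverse class, to which 0.441% of all regions belong. A peak in all 4 libraries was found in 8 regions (31.5% of all regions), and 14 regions had a peak in 1 library (30.2% of all regions). The 8 forskolin-only regions make 21.1% of the 38, close to the background share, so the count is not a result about these genes. The regions were spread unevenly, with 14 at Errfi1, 10 at Egfr and 2 to 5 at each ligand. The nearest TSS of any protein-coding gene was that of a family member for 25 of the 38 regions.

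**Figure D1:**
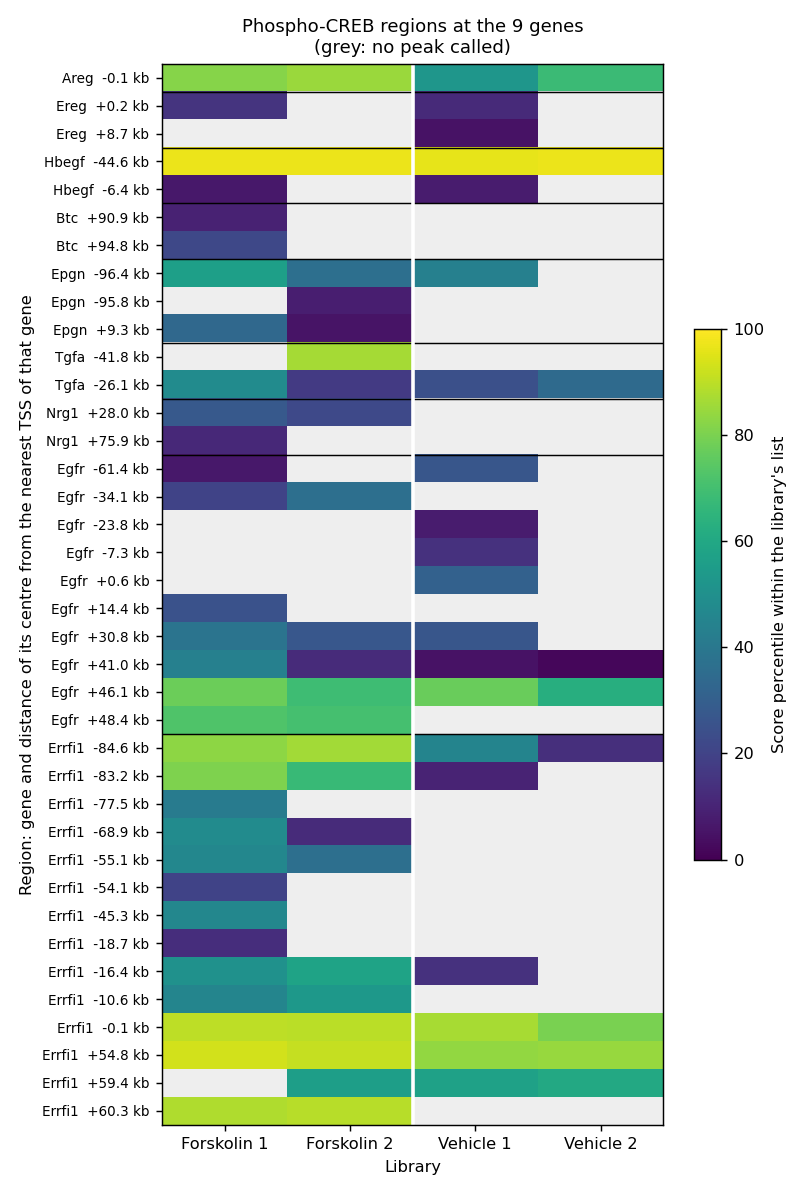
Each row is 1 of the 38 regions, listed under the one of the 9 genes with the nearest TSS and labelled with its distance in kb, and each column is 1 library. Colour gives the score percentile within that library's list, and grey marks regions with no peak. Errfi1 holds the tallest block of rows, 14, of which 4 are filled in both forskolin columns and grey in both vehicle columns and another 4 are filled in forskolin replicate 1 alone.

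The libraries held 31 and 23 peaks at the 9 genes under forskolin, against 20 and 9 under vehicle. The means were 27.0 ± 5.66 and 14.5 ± 7.78 peaks (SD, n = 2 each), a ratio of 1.86, and the whole lists differed by a ratio of 1.81. An exact two-sided permutation test gave p = 0.33, the smallest value that 2 libraries against 2 allow. The lists themselves hold 25566 and 19371 peaks under forskolin and 14686 and 10180 under vehicle. As a check of the cell type, all 10 listed osteoblast genes (among them Runx2, Sp7 and Bglap) had a region no farther than 10 kb from a TSS. The same held for 2 of 5 annotated haematopoietic or osteoclast genes (Cd68 and Ctsk), 1 of 5 adipocyte genes (Adipoq), 1 of 5 skeletal muscle genes (Myh3) and 55.1% of all genes, although a binding region is not a level of expression.

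Of the 3 regions within 100 kb of the Areg TSS, 2 lay in Ereg and 1 on the Areg promoter, and the promoter region stood higher in both forskolin lists than in either vehicle list. Areg lies on the plus strand of chromosome 5, from 91568641 to 91577458. Its promoter region runs from 91568416 to 91568752, with its centre at -57 bp from the TSS, and so reaches past the TSS into the gene. The rank was expressed as the percentile of its deposited score within each library's own list. The percentiles were 81.9 and 85.1 in the forskolin lists and 52.5 and 68.2 in the vehicle lists. The authors' deposited scores, whose scale is not stated, were 33.9 and 33.7 under forskolin and 11.6 and 13.9 under vehicle. The peak centres lay 4 bp and 34 bp from the middle of the full CRE in the forskolin libraries, and 4 bp and 31 bp from it in the vehicle libraries. The Areg CRE was thus inside the peak in every library.

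A higher rank under forskolin was common among regions of all 4 libraries. Both forskolin percentiles exceeded both vehicle percentiles in 5 of the 8 such regions at the 9 genes, against 44.6% of all 8930 regions of all 4 libraries. The reverse held in 0 of 8, against 2.51%. Within 1 kb of a TSS the share ranked higher was 37.2%, and among regions with a full CRE it was 63.7%. The mean percentile of the Areg promoter differed by 23.1 points between treatments, 83.5 under forskolin and 60.4 under vehicle. A difference at least as large was found in 20.3% of regions of all 4 libraries and in 9.84% of those within 1 kb of a TSS.

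A percentile also depends on how many peaks a list holds, and the forskolin lists are the longer ones. When only the 8930 regions of all 4 libraries were ranked, a setting chosen after seeing the data, Areg stood at 58.9 and 72.3 under forskolin and at 31.1 and 64.8 under vehicle. The treatments then overlapped. By this measure 2 of the 8 regions ranked higher and 2 ranked lower under forskolin, against 18.4% and 31.3% of all such regions. The share ranked higher was 8.16% within 1 kb of a TSS and 25.0% with a full CRE. The 2 higher regions were the most distal one of Errfi1 and one in an intron of Egfr, both described further on. The 2 lower regions were one counted for Hbegf near Ankhd1 and one counted for Egfr near Fbxo48, also described further on.

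**Figure D2:**
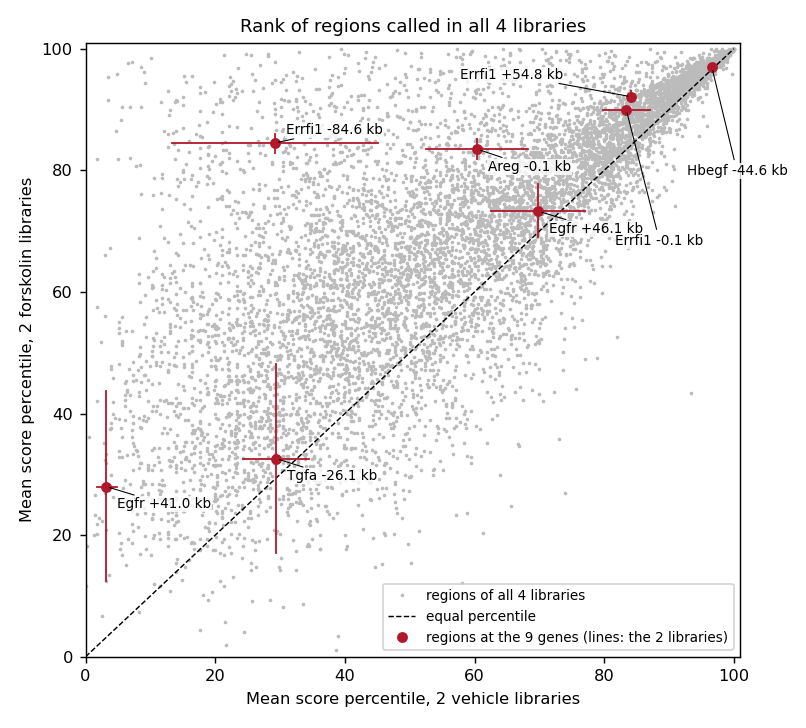
Mean score percentile in the 2 forskolin libraries (vertical axis) against that in the 2 vehicle libraries (horizontal axis) for regions called in all 4 libraries. Grey dots are all 8930 regions, red dots the 8 at the 9 genes, and red lines run between the 2 libraries of a treatment. The Errfi1 region at -84618 bp lies farthest above the dashed line of equal percentile among the 8, at 84.5 and 29.2.

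Areg shares a stretch of chromosome 5 with 3 further ligand genes, and none of those had a promoter region of all 4 libraries. Between the TSS of Epgn and that of Btc lie 375449 bp, and the 4 genes had 8 regions in all, of which 1 was forskolin-only and 1, at Areg, was of all 4 libraries. Ereg encodes epiregulin, and its TSS lies 64998 bp upstream of that of Areg. A region 156 bp downstream of the Ereg TSS, in an exon (91503644 to 91503954), was called in forskolin replicate 1 at percentile 15.0 and in vehicle replicate 1 at percentile 12.1. A second Ereg region, 8672 bp downstream of the TSS in an intron, was called in vehicle replicate 1 alone at percentile 4.8 and held 2 AP-1 sites. Neither Ereg region was called in both libraries of a treatment.

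Epgn encodes epigen. A forskolin-only region lay 9326 bp downstream of its TSS, beyond the end of the gene (91465571 to 91466062), at percentiles of 33.6 and 5.3. It ranked low, since 90.2% of all forskolin-only regions stood at least as high by the lower of their 2 percentiles. It also lay within 100 kb of the TSS of Ereg. The peaks of the 2 libraries overlapped by less than 50% of their width, so with that overlap required they were counted as separate regions. Btc encodes betacellulin. Its 2 regions, 90924 and 94848 bp downstream of its TSS, were called in forskolin replicate 1 alone at percentiles 9.7 and 21.8.

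**Figure D3:**
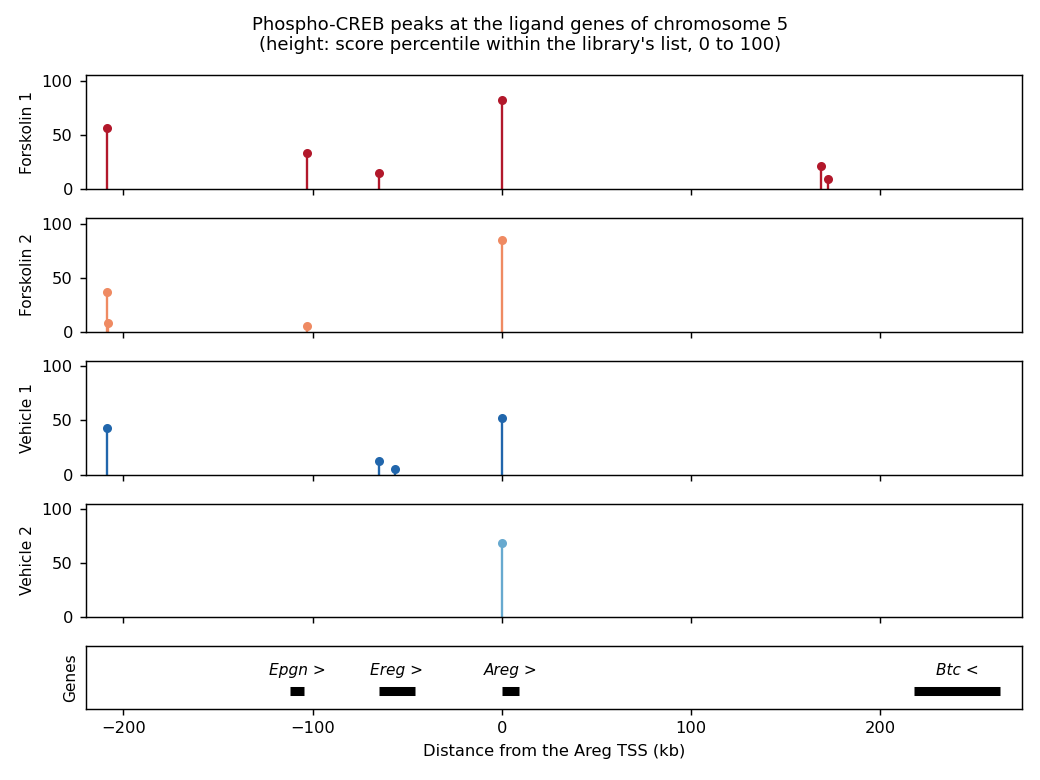
Peaks of each library at Epgn, Ereg, Areg and Btc, placed by distance from the Areg TSS in kb. Line height is the score percentile within the library's list, and black bars are the genes with their direction. The Areg promoter carries the tallest line in each library, at 81.9 and 85.1 under forskolin and 52.5 and 68.2 under vehicle.

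The ligand genes on other chromosomes had 2 regions each. Hbegf encodes heparin-binding EGF-like growth factor and lies on chromosome 18. One region lay at -6442 bp from its TSS and slightly nearer to a TSS of Slc4a9, at -5904 bp. It was called in forskolin replicate 1 at percentile 6.4 and in vehicle replicate 1 at percentile 7.7. The other one ranked near the top of every list, at 97.0 and 97.0 under forskolin and 96.2 and 97.0 under vehicle. Among the regions of all 4 libraries alone, it stood at 92.1 and 93.8 under forskolin and at 93.8 and 96.6 under vehicle. It counted as lower by that measure, though the closest values are equal as rounded. That region, at -44575 bp from Hbegf, lies at -223 bp from a TSS of Ankhd1, a neighbouring gene. No library thus had a peak within 1 kb of the Hbegf TSS.

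Tgfa encodes transforming growth factor alpha, and both of its regions lay upstream between genes on chromosome 6. The nearer one, at -26074 bp (86119115 to 86119577), was called in all 4 libraries, at 48.1 and 17.1 under forskolin and 24.3 and 34.5 under vehicle, which overlap. The farther one, at -41799 bp (86103470 to 86103772), is the region with the full CRE shown at the start. It had a peak in forskolin replicate 2 alone, at percentile 86.4. Of the 1571 regions called in that library alone, 13 (0.827%) stood as high or higher. With forskolin replicate 1 left out it counted as forskolin-only, which follows from the rule and is no further evidence.

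Nrg1, encoding neuregulin 1, had 2 intronic regions on chromosome 8. One, 28022 bp downstream of a TSS (33091388 to 33091730), was forskolin-only at percentiles of 28.0 and 22.2. The other, 75908 bp downstream, was called in forskolin replicate 1 alone at percentile 11.4. The annotated gene spans 191082 bp, while RefSeq's model on GRCm38 spans 1084158 bp, so a part of the longer model was not covered by the rule.

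Egfr, on the plus strand of chromosome 11 from 16652206 to 16818161, had 10 regions, of which 8 lay in its introns, and none was a promoter region of both libraries of a treatment. A region 622 bp downstream of the upstream group of TSS was called in vehicle replicate 1 alone at percentile 31.1. A region at -7316 bp from an internal TSS was also found in that library alone, at percentile 14.4. The highest-ranked forskolin-only region of Egfr lay in an intron, 48447 bp downstream of a TSS (chromosome 11, 16700520 to 16700840), at percentiles of 72.6 and 70.4. Of all forskolin-only regions, 11.2% stood as high by the lower percentile. The nearest TSS of any protein-coding gene was that of Gm17664, from which this region lay at -38417 bp. The other forskolin-only region, also intronic (16743866 to 16744213), lay -34114 bp from an internal TSS and stood at 20.1 and 36.4. The remaining 4 regions not of all 4 libraries, at -61416, -23788, 14358 and 30831 bp, stood between percentiles 6.4 and 38.3 where called.

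In another Egfr intron, 40969 bp downstream of a TSS (16693018 to 16693386), a region of all 4 libraries ranked higher under forskolin. Its percentiles were 43.7 and 12.4 under forskolin and 4.8 and 1.7 under vehicle, so it was weak throughout. Ranked among the regions of all 4 libraries, it stood at 7.4 and 3.8 under forskolin and 1.4 and 1.3 under vehicle. The higher rank did not hold with shorter lists. With each list cut to the length of the shortest, only vehicle replicate 2 kept a peak there, at percentile 1.7. With the top 50% of each list no library did. This region, too, lay nearest to the TSS of Gm17664, at -30939 bp. The other region of all 4 libraries, 46131 bp from the nearest Egfr TSS, lay at -59 bp from a TSS of Fbxo48. It stood at 77.7 and 69.0 under forskolin and 77.0 and 62.6 under vehicle, which overlap. Among the regions of all 4 libraries alone, it ranked lower under forskolin, at 50.8 and 47.7 against 63.4 and 58.6 under vehicle.

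Errfi1 had the most regions of the 9 genes, 14, of which 4 were forskolin-only and 3 were of all 4 libraries. The gene lies on the plus strand of chromosome 4, from 150228028 to 150243001. As many forskolin-only regions were found at 2.6% of all genes, and as many regions of any class at 3.69%. Its promoter region (chromosome 4, 150228940 to 150229292), centred at -66 bp from the downstream TSS and in an intron of the longer transcript, stood at 90.2 and 89.7 under forskolin and 87.1 and 79.8 under vehicle. The difference in mean was 6.5 points, and 40.2% of regions of all 4 libraries near a TSS differed by as much. Peak centres lay 6 bp and 0 bp from the middle of the promoter's full CRE under forskolin, and at 2 bp and -40 bp from it under vehicle. The Errfi1 promoter was thus high in all 4 lists. Ranked among the regions of all 4 libraries, it stood at 76.3 and 80.1 under forskolin and at 79.2 and 77.4 under vehicle, which overlap.

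The far upstream part of the Errfi1 locus differed more between treatments than its promoter. A region at -84618 bp (150143216 to 150143605), between genes, stood at 82.9 and 86.0 under forskolin and 45.1 and 13.3 under vehicle. Its mean percentile was 84.5 under forskolin and 29.2 under vehicle. This difference of 55.2 points was reached by 2.37% of regions of all 4 libraries. Ranked among those regions alone, the values were 61.0 and 73.8 under forskolin and 23.5 and 10.9 under vehicle, and 2.58% differed by as much. Most regions of all 4 libraries lay within 1 kb of a TSS, where a higher rank under forskolin was less common. The share there was 37.2%, against 44.6% over all such regions, and 8.16% against 18.4% when only these were ranked. The 2.37% and 2.58% are thus shares among regions mostly near a TSS. How rare the difference is among regions far from a TSS was not tested. A neighbouring region at -83150 bp (150144670 to 150145087) stood at 80.6 and 67.5 under forskolin, with a peak at 9.8 in vehicle replicate 1 and none in vehicle replicate 2. In both of these regions the forskolin values lay above every vehicle value. When the top 50% of each list was kept, the region at -84618 bp was forskolin-only, at 65.9 and 72.0.

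Between these sites and the promoter lay a row of weaker regions. Those at -68853 bp (percentiles 48.1 and 12.4), -55114 bp (46.3 and 36.4) and -10611 bp (45.5 and 53.3) were forskolin-only. The one at -16362 bp stood at 50.7 and 58.2 under forskolin and was called at 14.4 in vehicle replicate 1. A further 4 upstream regions, between -77464 and -18676 bp, were found in forskolin replicate 1 alone, at percentiles from 13.2 to 46.3. Upstream of the Errfi1 promoter, at least 1 forskolin library had a peak at 10 of 10 regions, against 96.7% of all regions. At least 1 vehicle library had one at 3 of 10, against 54.4% of all regions. Those background shares include promoters, whereas these 10 regions lay between genes. How the 3 of 10 compares with regions far from a TSS was not tested. The 4 regions of forskolin replicate 1 alone rest on the longest list. The number of forskolin-only regions counted for Errfi1 was 2 with lists of equal length. Those at -68853, -55114 and -10611 bp were not among them, nor did they stay forskolin-only with the top 50% of each list. The number was 1 with a window of 50 kb, 0 with one of 10 kb and 8 without forskolin replicate 2.

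The strongest forskolin-only region counted for Errfi1 belongs by position to another gene. It lies 60287 bp downstream of the nearest Errfi1 TSS (150289300 to 150289639), in an intron of Tnfrsf9 and 798 bp downstream of the TSS of that gene, which encodes the T-cell co-stimulatory receptor 4-1BB. Its percentiles were 88.0 and 89.2, and 2.49% of all forskolin-only regions stood as high. The region of all 4 libraries at 54821 bp lay at -26 bp from a TSS of Park7, at 93.0 and 91.2 under forskolin and 83.8 and 84.7 under vehicle. Among the regions of all 4 libraries alone, it stood at 82.5 and 82.6 under forskolin and at 74.0 and 82.8 under vehicle, which overlap. Another region, at 59396 bp (150288407 to 150288750), lay at -32 bp from a TSS of Park7 and also spanned the start of Tnfrsf9, at 150288671. It had peaks at 55.9 in forskolin replicate 2 and at 57.3 and 60.5 in the 2 vehicle libraries.

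**Figure D4:**
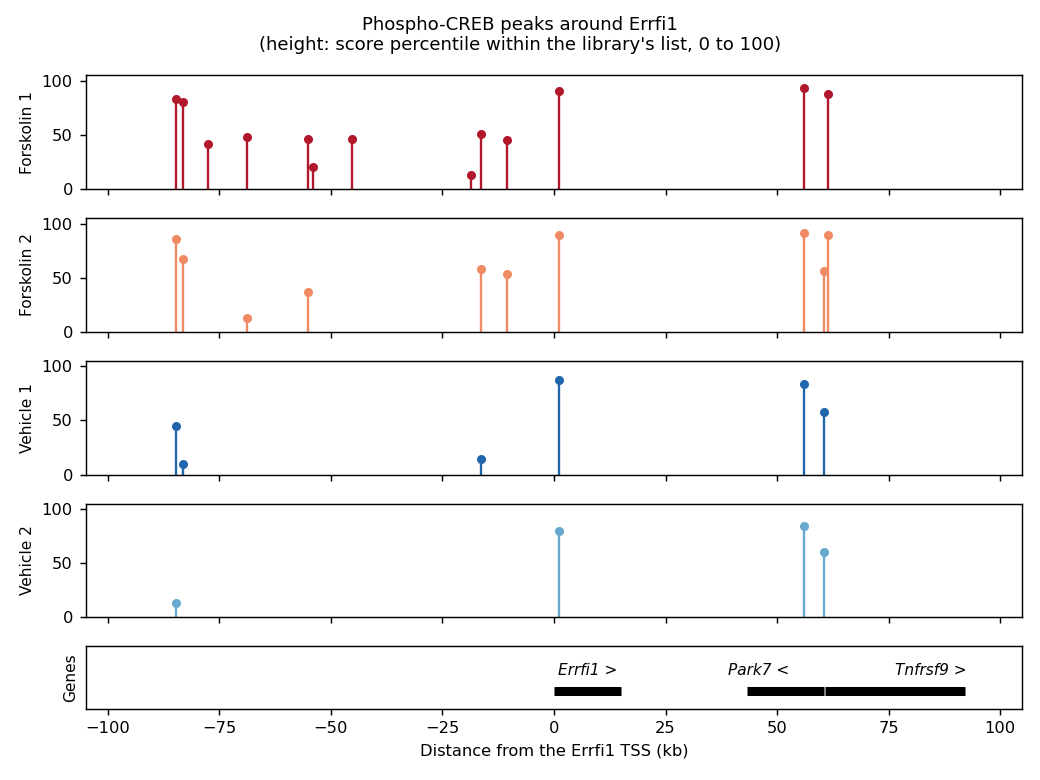
Peaks of each library around Errfi1, placed by distance from its upstream TSS in kb (the promoter peak lies near the downstream TSS, 1154 bp further). Line height is the score percentile within the library's list, and black bars are genes with their direction. Of the 10 regions upstream of the gene, 4 have a line in forskolin replicate 1 alone, and 3 have one in a vehicle library. Over all regions, promoters included, 96.7% have a forskolin peak and 54.4% a vehicle peak.

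Of the regions that differed in calls or ranks at Errfi1, Egfr and Nrg1, the 6 shown here held a CRE core but no full CRE within 100 bp of their centre. They are given as the centre base with 100 bases on either side, with CRE cores and AP-1 sites in capitals, and comprise the most distal Errfi1 region and every forskolin-only region with either motif.
Errfi1, -84618 bp, chr4:150143310-150143510, plus strand: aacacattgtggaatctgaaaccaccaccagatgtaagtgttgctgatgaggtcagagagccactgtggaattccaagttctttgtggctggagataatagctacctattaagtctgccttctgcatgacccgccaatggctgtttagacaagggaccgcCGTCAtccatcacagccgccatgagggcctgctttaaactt
Errfi1, -68853 bp, chr4:150159075-150159275, plus strand: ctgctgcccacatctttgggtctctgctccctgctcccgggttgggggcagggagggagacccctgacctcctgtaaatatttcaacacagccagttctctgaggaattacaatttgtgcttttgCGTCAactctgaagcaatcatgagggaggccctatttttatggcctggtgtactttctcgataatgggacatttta
Errfi1, -10611 bp, chr4:150217317-150217517, plus strand: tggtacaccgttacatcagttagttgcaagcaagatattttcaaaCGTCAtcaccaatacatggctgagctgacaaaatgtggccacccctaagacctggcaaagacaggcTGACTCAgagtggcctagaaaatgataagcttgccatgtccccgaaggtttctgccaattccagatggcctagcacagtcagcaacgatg
Tnfrsf9 intron, chr4:150289369-150289569, plus strand: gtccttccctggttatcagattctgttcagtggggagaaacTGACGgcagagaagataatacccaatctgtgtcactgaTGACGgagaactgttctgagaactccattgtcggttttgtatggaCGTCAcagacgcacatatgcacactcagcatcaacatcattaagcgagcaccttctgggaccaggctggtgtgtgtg
Egfr intron, 48447 bp, chr11:16700580-16700780, plus strand: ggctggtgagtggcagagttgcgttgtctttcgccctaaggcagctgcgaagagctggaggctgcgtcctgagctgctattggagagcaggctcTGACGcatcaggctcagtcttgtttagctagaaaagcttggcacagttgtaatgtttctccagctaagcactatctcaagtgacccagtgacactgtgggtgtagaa
Nrg1 intron, 28022 bp, chr8:33091459-33091659, plus strand: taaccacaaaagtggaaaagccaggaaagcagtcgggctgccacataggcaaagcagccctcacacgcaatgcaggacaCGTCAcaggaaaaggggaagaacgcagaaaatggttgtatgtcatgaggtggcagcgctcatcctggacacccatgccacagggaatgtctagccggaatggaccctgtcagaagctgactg

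The motif shares of the 38 regions are set beside those of all regions without a test. A full CRE was found within 100 bp of the centre in 3 of 38 (7.89%), against 3.53% of all regions, and the CRE core, which every full CRE contains, in 13 (34.2%), against 29.1%. AP-1 sites were found in 3 (7.89%, against 13.8%) and the RUNX site TGTGGT in 9 (23.7%, against 24.2%). Of the 8 forskolin-only regions, 5 held the core (38.6% of all forskolin-only regions) and 0 a full CRE (3.59%). In the 250 bases before a TSS, a full CRE was found at 2 of the 9 genes, Areg and Errfi1, and at 2.93% of all genes. At both, a region called in all 4 libraries lay 1 kb or less from a TSS, as at 71.0% of the 656 genes with such a CRE. At the other 7 genes there was no such region, and over all genes the share was 30.3%. A match is a description of the letters and does not show which site was bound.

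Counted by gene, 5 of the 9 had a forskolin-only region (Ereg and Epgn, which share one, Nrg1, Egfr and Errfi1), against 40.0% of all genes and 50.2% of genes with any region. The count of regions near a gene bears on this share. Among genes with 10 or more regions, as Egfr and Errfi1 have, it was 79.8%. Among genes with 2 to 5 regions, as the 7 ligand genes have, it was 37.1%, and 3 of the 7 ligand genes had one. A region of all 4 libraries lay near 6 of the 9 genes, against 67.2% of all genes. Median percentiles of the 8 forskolin-only regions were 45.9 and 36.4, against 44.6 and 32.0 for all 5187.

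**Figure D5:**
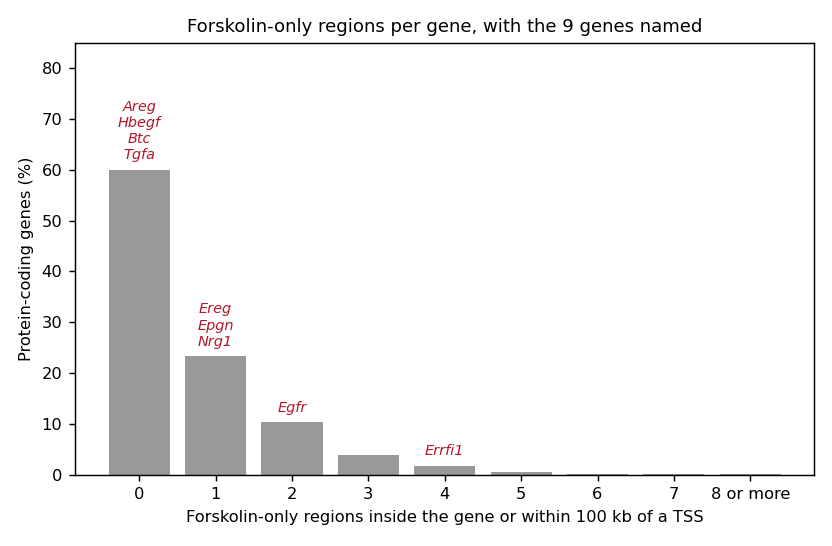
Share of all 22367 protein-coding genes (vertical axis, percent) by their number of forskolin-only regions inside the gene or within 100 kb of a TSS (horizontal axis). The 9 genes are named above their bar. With 4, Errfi1 stands in a bar of 1.77% of genes, while Areg, Hbegf, Btc and Tgfa are among the 60.0% with 0.

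Beyond the 9 genes, 40 annotated genes of the same pathway were examined by the same rule. A forskolin-only region was found at 23 of them (57.5%), beside 40.0% of all genes and 50.2% of genes with any region. The pathway genes had a median of 6.0 regions, against 4.0 over all genes. By number of regions, a forskolin-only region was found at 5 of 14 pathway genes with 2 to 5 regions (37.1% of all such genes), 11 of 12 with 6 to 9 (66.1%) and 7 of 10 with 10 or more (79.8%). No list-wide difference was tested. By role these were 1 of 4 further ligands (Egf), 1 of 3 further receptors (Erbb2) and 5 of 7 sheddases and their iRhom cofactors (Adam8, Adam9, Adam10, Adam12 and Rhbdf2). Adaptors and RAS-MAPK steps contributed 8 of 14 (among them Shc1, Map2k1, Sos2, Grb2 and Braf) and inhibitors 8 of 12 (Rnf41, Socs5, Cblb, Spred2, Lrig1, Socs4, Cbl and Lrig3). A peak region common to the 4 libraries lay 1 kb or less from a TSS at 21 of the 40, against 30.3% of all genes. Adam17, the main sheddase of amphiregulin, had 3 regions of all 4 libraries and 0 forskolin-only ones; it was singled out after its values were seen.

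Among the pathway genes, the highest-ranked forskolin-only region was counted for Adam9, a sheddase gene, at percentiles of 96.9 and 98.0. It lay at -51381 bp from Adam9, in an intron and nearer to Plekha2. For Shc1, an adaptor of activated receptors, the region stood at 82.0 and 84.1, 49532 bp downstream and nearer to Pmvk. The region counted for Rnf41, a ubiquitin ligase acting on ErbB3, stood at 84.8 and 73.1, held a full CRE and lay nearer to Ankrd52. For Socs5, a suppressor of cytokine and receptor signalling, the region stood at 60.1 and 50.5, held a full CRE and lay nearer to Mcfd2. In each of these 4 cases another gene's TSS was the nearest.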

How the data were processed

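The 4 anti-phospho-CREB libraries were grouped by their titles, 2 for forskolin and 2 for vehicle, and an input library of another series was not used here. Per the submitters' processing notes, the tools were Bowtie and HOMER and the build was mm9. No source used here gives the peak-calling thresholds. The authors deposited 1 list per library, with the position and a score of each peak. The scale of the score is not stated, so it was used to rank peaks within a list, as the mean rank over the list length in percent, the highest peak counting where a region held several. Depth is unknown, and the number of libraries limits the precision.

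Genes and TSS came from GENCODE M1 on NCBIM37, on which every region fitted its chromosome. Sequences are of that reference. Hras and Spi1 matched no annotated symbol, and some pathway genes are counted but not reported by name here. The merging and class rules put 2000 of 2000 simulated regions into their class. Other list lengths, merging rules, windows and left-out libraries were tried. The shares by number of regions were added after seeing the data. Peak numbers were compared by an exact permutation test, and all else was counted and set beside the share over all regions or genes. The 9 genes and the lists were chosen with earlier results of these data known. Regions were named where they lay within 10 kb of a TSS of the 9 genes, were forskolin-only or ranked highest, and others where a count needed them. The rule for printed sequences covered the Areg promoter and the forskolin-only regions. The Errfi1 promoter, its most distal region and the Tgfa region were chosen after their values were seen. Python 3.11.15, numpy 2.4.6, scipy 1.17.1 and matplotlib 3.10.9 were used.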

Additional observations from a re-analysis of the deposited data

How the results depend on the processing

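The counts moved with list length and window. Keeping the top 50% of each list gave 5 forskolin-only regions, against 8, and 5 regions of all 4 libraries, against 8. These 5 forskolin-only regions include ones whose vehicle peaks the cut removed, such as that at -84618 bp of Errfi1. Genes with a forskolin-only region then numbered 2, against 5, and pathway genes with one 13, against 23. Regions ranked higher numbered 3, against 5. With each list cut to the highest-scoring peaks up to the length of the shortest, the counts were 3 forskolin-only regions, 2 genes, 1 region ranked higher (at -84618 bp of Errfi1) and 7 pathway genes. The Egfr region at 48447 bp and the Tnfrsf9 region were 2 of the 8 forskolin-only regions and stayed so under both settings, the other 6 under neither. Areg with equal lists stood at 54.5 and 71.7 under forskolin and at 31.5 and 68.2 under vehicle. Ranked among regions of all 4 libraries, 2 regions ranked higher. With 50% overlap of the shorter peak required, 3 genes had a forskolin-only region.

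With a window of 10 kb, the counts were 4 forskolin-only regions, 3 of all 4 libraries, 3 genes, 3 ranked higher and 11 pathway genes. With 50 kb there were 5 forskolin-only regions and 3 ranked higher. Leaving out 1 library loosens the rule. Forskolin-only regions then numbered 8 to 16 (16 without forskolin replicate 2), vehicle-only 0 to 4 (4 without vehicle replicate 2), those of all libraries 8 to 12 (12 without vehicle replicate 2), and those ranked higher 5 to 9 (9 without vehicle replicate 2). Genes with a forskolin-only region numbered 5 to 6 and pathway genes 25 to 28. The ratio of peak numbers ran from 1.35 to 3.0, 3.0 without vehicle replicate 1, and was 1.22 with equal lists. By gene, Epgn had 2 forskolin-only regions without vehicle replicate 1 or forskolin replicate 1, and Tgfa 1 without forskolin replicate 1. Without forskolin replicate 2, Errfi1 had 8, Btc 2 and Nrg1 2.

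The replicate numbers are not stated to mark a shared batch. Percentile deviations of same-numbered libraries correlated at 0.19 over the 8930 regions. With replicate block, the ratio stays at 1.86 and an exact sign-flip test over the 2 pairs gave p = 0.5, the smallest it can give.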

Other observations

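Upstream of the annotated end of Nrg1, where RefSeq's longer model on another build would extend, 467773 bp separate it from the next protein-coding gene, Gm5908. That stretch held 2 regions. One, at -284117 bp (chromosome 8, 33403516 to 33403880), was called in all 4 libraries, at percentiles of 55.2 and 22.2 under forskolin and 29.0 and 26.9 under vehicle, which overlap. The other, at -277725 bp, was called in forskolin replicate 1 alone at percentile 34.8.

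At the far end of the chromosome 5 ligand genes, 2 regions counted for Epgn lay at Mthfd2l, a gene of mitochondrial one-carbon metabolism. The one at -144 bp from its TSS stood at 56.5 and 36.4 under forskolin and at 43.4 in vehicle replicate 1. The one 515 bp downstream was called in forskolin replicate 2 alone at percentile 8.5.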
